A study of Mus musculus with 2 samples.

Results

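Perineurial sheath-like cells of the mouse dorsal root ganglion were chosen by the measured counts of 6 sheath genes, as the barcodes that carried RNA of Igfbp6, Islr, Thbs4, Itgb4, Cldn1 and Lbp. A barcode, the tag of 1 droplet and thus usually of 1 cell, was a member if it held 500 to 10000 unique molecular identifiers (UMIs, each a counted RNA molecule) and at least 4 UMIs of the 6 genes together. These UMIs also had to make up at least 30 per 10000 of the barcode. At least 1 UMI had to come from Itgb4 or Cldn1, and Ptgds, abundant in the arachnoid layer of the meninges, had to stay under 50 per 10000. By this rule 1064 of 27777 barcodes were members.

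The series asked how loss of enkephalin in regulatory T cells bears on nociception and skin inflammation. Each group was 1 library of pooled cervical ganglia, fixed in 4% paraformaldehyde, from mice that had received tamoxifen and 3 days of imiquimod, a skin irritant used to model psoriasis. Mice of genotype Foxp3 CreER; Penk fl/WT gave the Penk_control library, and Foxp3 CreER; Penk fl/fl mice gave Treg_Penk_KO, so both groups carried the tamoxifen-activated Cre, under control of Foxp3, and at least 1 floxed Penk allele. Penk encodes the precursor of the enkephalin peptides, and Foxp3 is the defining transcription factor of regulatory T cells. How many mice were pooled, and their age and sex, is not given in the sources. No test between the genotypes was possible with a single library each. All intervals below are exact 95% intervals that cover counting error only, and they do not measure the spread between mice.

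The perineurium is a sleeve of flattened cells around nerve fascicles that continues onto the capsule of the ganglion. Its cells are joined by tight junctions and lie on a basement membrane, and together with the vessels of the nerve they form the blood-nerve barrier. During nerve development, Schwann cells release desert hedgehog, which signals through the receptor Patched to organise the sheath. Cldn1 is a tight junction protein of this barrier, and Itgb4 is the beta subunit of a laminin receptor that anchors epithelium-like cells to a basement membrane. Igfbp6 binds insulin-like growth factors, Thbs4 is a secreted matrix glycoprotein, Lbp binds bacterial lipopolysaccharide, and Islr encodes a leucine-rich repeat protein of mesenchymal cells.

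The Penk_control library held 551 members among 15710 barcodes, a share of 3.51% (Clopper-Pearson interval 3.23 to 3.81%). In the Treg_Penk_KO library 513 of 12067 barcodes were members, a share of 4.25% (3.90 to 4.63%). The share was thus 1.21 times as large in the Treg_Penk_KO library (1.07 to 1.37), and it was 1.15 times as large when only barcodes in the 500 to 10000 UMI window were counted in the denominator. Shares of a dissociated suspension depend on every other cell type that was recovered, and no replicate measures how far they vary. Members were shallow, with a median of 1111 UMIs in the Penk_control library and 1130 in the Treg_Penk_KO library, and summed to 840798 and 830866 UMIs. A droplet tag that also occurred in the other library was found for 147 Penk_control members (26.7%) and 177 Treg_Penk_KO members (34.5%), and 6 tags held a member of both libraries. Across both libraries 4723 tags were shared.

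Levels are given below as CPM, the UMIs of a gene per 1000000 UMIs summed over the members of a library. Each gene is read by its own probe pairs in this assay, so levels are compared between cells and not between genes. The rule genes are given as a description only, because they chose the members. Igfbp6 stood at 4326 CPM in Penk_control members and 4482 CPM in Treg_Penk_KO members, Islr at 1757 and 1805 CPM, Thbs4 at 778 and 744 CPM, and Lbp at 492 and 508 CPM. Itgb4 stood at 1376 and 1318 CPM and Cldn1 at 869 and 975 CPM. None of the 6 differed by as much as 1.2-fold between the libraries. Both Itgb4 and Cldn1 were detected in 238 Penk_control and 245 Treg_Penk_KO members, Itgb4 alone in 170 and 130, and Cldn1 alone in 143 and 138. In the GRCm39 assembly Itgb4 spans chr11:115865333-115899239 on the plus strand and Cldn1 chr16:26175392-26190596 on the minus strand.

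The rule has an edge where members and other cells meet. The UMIs of the 6 genes made up a median of 83.6 per 10000 of a Penk_control member, with a range of 30.4 to 483, and a median of 89.0 per 10000 of a Treg_Penk_KO member, with a range of 30.2 to 500. Between 30 and 35 per 10000 lay 32 Penk_control and 35 Treg_Penk_KO members, and 42 and 38 barcodes lay just outside at 25 to 30 per 10000. Slc2a1 was at 105 and 128 CPM just inside and at 169 and 171 CPM just outside, whereas Stra6 was at 131 and 244 CPM inside and at 84.6 and 53.9 CPM outside.

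Genes known from the perineurium that the rule did not use were present in the members. For comparison, 4 further classes of barcodes within the same UMI window were formed from marker genes: a fibroblast class (383 Penk_control and 327 Treg_Penk_KO barcodes), a class with high Ptgds (36 and 52), an endothelial class (318 and 273) and a satellite glia class (796 and 684). Since a barcode that met the rule went to the members, the comparison describes the classes and is no test. Slc2a1, the glucose transporter of barrier cells, stood at 461 CPM (417 to 510) in Penk_control and 425 CPM (382 to 472) in Treg_Penk_KO members, against 93.2 and 66.5 CPM in the fibroblast class and 1035 and 1041 CPM in the endothelial class. Itga6, the partner of Itgb4 in the laminin receptor, stood at 528 and 538 CPM in members and at 229 and 176 CPM in the fibroblast class. Mpzl2, an adhesion molecule, stood at 172 and 153 CPM in members and at 5.27 and 3.70 CPM in fibroblasts.

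Of the less abundant sheath markers, Perp, Lypd2 and Ocln were likewise higher in members than in the fibroblast class. Perp, a component of epithelial junctions, stood at 122 and 112 CPM in members and at 5.27 and 5.54 CPM in the fibroblast class. Lypd2 stood at 83.3 and 89.1 CPM in members, and in the fibroblast class it had no UMI in the Penk_control library and 5.54 CPM in the other. The tight junction genes Tjp1 and Ocln stood at 268 and 277 CPM and at 57.1 and 62.6 CPM in members. Ocln had no UMI in the fibroblast class of either library. The tight junction list outside the rule summed to 1934 and 1900 CPM in members. Lower sums were those of the fibroblast class (949 and 911 CPM) and satellite glia (977 and 1080 CPM). The Ptgds-high class (2280 and 2215 CPM) and the endothelial class (5171.5 and 5671.5 CPM) had higher sums. Muc1 was all but absent, with 0 and 2.41 CPM in members. Of the 11 markers outside the rule, 10 reached 100 member UMIs over both libraries, and Ntn4, which encodes a basement membrane protein of the netrin family, was the 1 gene among them with a lower level in Treg_Penk_KO members by 1.5-fold or more (182 and 120 CPM, ratio 0.661, 0.509 to 0.857).

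Detection per cell was also higher in members than in the fibroblast class. A UMI of Slc2a1 was found in 33.4% of Penk_control members (29.5 to 37.5%) and in 40.5% of Treg_Penk_KO members (36.3 to 44.9%). In the fibroblast class, at median depths of 1019 and 986 UMIs, the share was 10.4% and 9.48%. After each cell was thinned to 500 UMIs the Slc2a1 shares were 16.7% and 21.1% in members and 4.70% and 2.45% in the fibroblast class. The share of members with Slc2a1 was higher in the Treg_Penk_KO library while its CPM was not, so no order between the libraries is read from it. Cldn11, a tight junction claudin, was detected in 35.2% and 35.3% of members and in 1.04% and 1.83% of the fibroblast class, or 20.3% and 22.6% of members after thinning.

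**Figure D1:**
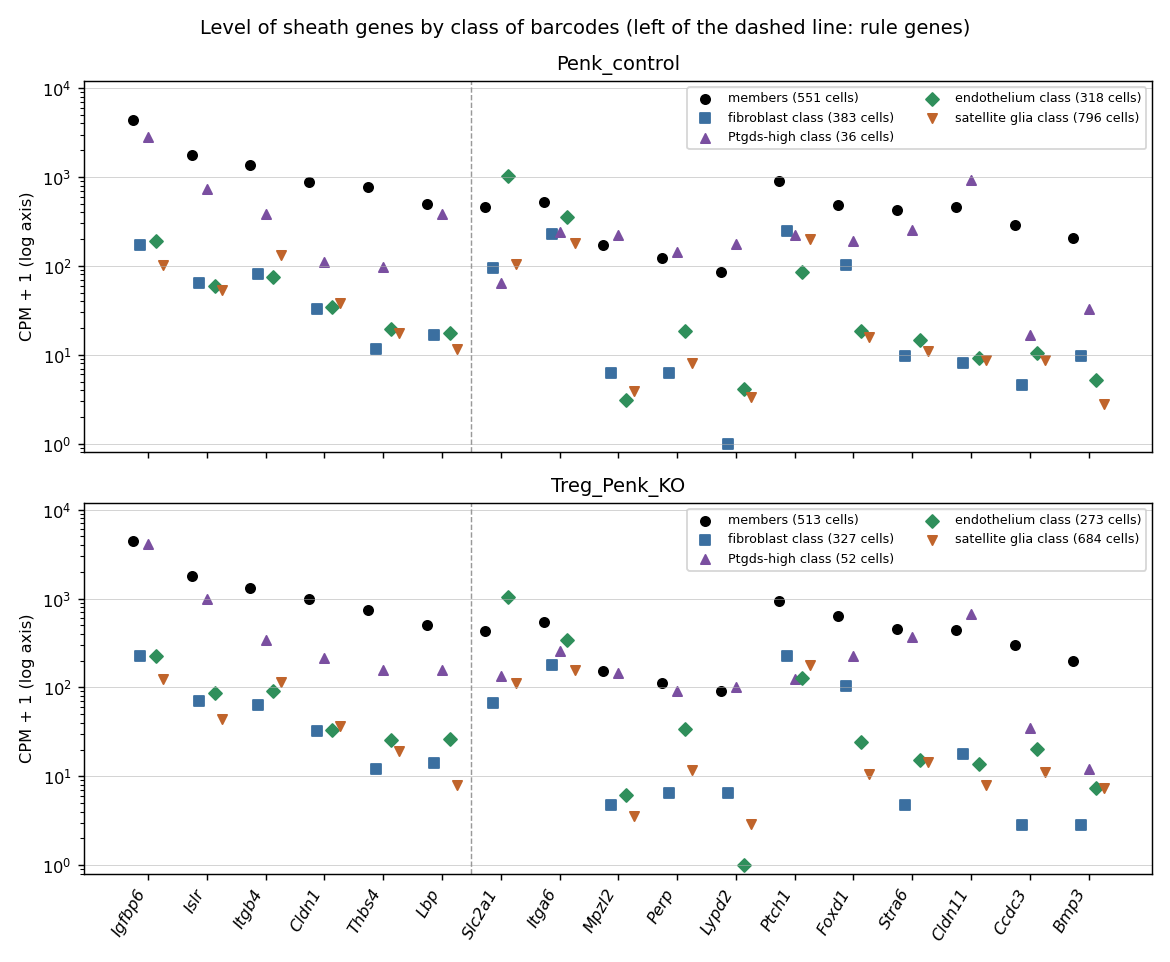
CPM plus 1 (log axis) of rule genes, left of the dashed line, and of other sheath genes, right of it, in the members and 4 comparison classes, with Penk_control above and Treg_Penk_KO below. Members lay above the fibroblast class for each plotted gene, whereas Slc2a1 was highest in the endothelial class and Cldn11 in the Ptgds-high class.

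Other genes set the members apart from all 4 classes in both libraries, and they were ranked by the smaller of the 2 libraries' differences. Ccdc3, which encodes a secreted protein, led this ranking with 287 and 298 CPM in members and 3.52 and 1.85 CPM in the fibroblast class. Bmp3, a bone morphogenetic protein, stood at 202 and 195 CPM in members and at 8.79 and 1.85 CPM in fibroblasts. Meox2, a homeobox factor, stood at 220 and 259 CPM in members and at 43.9 and 51.8 CPM in fibroblasts. Pthlh, which encodes parathyroid hormone-related protein, stood at 108 and 98.7 CPM in members and at 17.6 and 9.24 CPM in fibroblasts. The rest of the leading 15 genes were Ptch1, Pkdcc, Pcdh19, Islr2, Thbs1, Itgbl1, Wfdc1, Foxd1, Boc, Plcd3 and Trib2. Against the fibroblast class alone the largest difference was that of Stra6, the cell surface receptor for retinol-binding protein, with 422 and 451 CPM in members and 8.79 and 3.70 CPM in fibroblasts. None of these genes was called by the 1.5-fold rule used below. The values farthest from 1 were those of Itgbl1 at 187 and 253 CPM (ratio 1.35, 1.10 to 1.68), Foxd1, a forkhead factor, at 484 and 638 CPM (ratio 1.32, lower bound 1.16), and Wfdc1 at 259 and 194 CPM (ratio 0.747, 0.606 to 0.920).

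Receptors and targets of hedgehog signalling were high in members, while the ligand was highest in another class. Ptch1, the receptor and itself a target gene, stood at 897 and 932 CPM in members, 244 and 225 CPM in the fibroblast class and 201 and 179 CPM in the satellite glia class. Gli1, the transcription factor whose RNA reports pathway activity, stood at 276 and 270 CPM in members and at 123 and 85.0 CPM in fibroblasts. Dhh, the ligand desert hedgehog, stood at 44.0 and 56.6 CPM in members and at 251 and 298 CPM in satellite glia. Smo, the signal transducer, stood at 130 and 91.5 CPM in members, and the co-receptor Boc at 88.0 and 81.8 CPM. Of the 14 hedgehog genes listed, 4 reached 100 member UMIs, and none of these differed by 1.5-fold between libraries.

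Some genes of the arachnoid, the meningeal layer with which the perineurium is continuous at the nerve roots, were also counted in the members. Of 12 measured genes on the arachnoid barrier list, 6 had enough member UMIs to be compared. The list, which includes Ptgds, summed to 1948 and 1985 CPM in members and to 33966 and 34693 CPM in the Ptgds-high class. Slc22a6 (1.19 and 0 CPM), Slc22a8 (2.38 and 1.20 CPM) and Aldh1a2 (4.76 and 6.02 CPM) were all but absent from members. Klf5, an epithelial transcription factor, stood at 618 and 632 CPM in members, 333 and 360 CPM in the Ptgds-high class and 77.3 and 86.9 CPM in fibroblasts. Wnt6 stood at 314 and 337 CPM in members, 412 and 382 CPM in the Ptgds-high class and 29.9 and 40.7 CPM in fibroblasts. Cldn11 stood at 460 and 444 CPM in members and at 934 and 675 CPM in the Ptgds-high class. The classes parted at Slc2a1, with 63.3 and 135 CPM in the Ptgds-high class. Thbs4 stood at 95 and 157 CPM there, but as a rule gene it helped choose the members, so no difference is read from it. The 6 rule genes summed to 4513 and 5936 CPM in the Ptgds-high class and to 9598 and 9832 CPM in members. Ptgds itself was limited by the rule and stood at 167 and 197 CPM in members.

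RNA of other cell types was also counted in the members. The 9 neuron markers summed to 6684 and 7165 CPM, the 9 markers of myelinating Schwann cells to 9135 and 8554 CPM, and the 5 satellite glia markers to 3694 and 3273 CPM. Endothelial markers summed to 516 and 462 CPM and macrophage markers to 369 and 400 CPM. T cell markers summed to 1.19 and 0 CPM, epithelial markers had no UMI in either library, and mesothelial markers summed to 0 and 1.20 CPM. The endoneurial fibroblast list, mostly Apod, summed to 23046 and 19707 CPM. Whether this RNA came from cells caught in the same droplet, from fragments or from free RNA was not tested.

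The members were not uniform, and clustering divided them into 6 sub-clusters. Only 1 resolution was tried, and the genes that lead a sub-cluster were used to form it, so they are descriptions. Sub-cluster 1 (127 Penk_control and 131 Treg_Penk_KO members) was led by Hcn4, Col12a1 and Slc38a2, and sub-cluster 5 (73 and 78) by Thbs4, Bmp3 and Ptch1. Both carried the highest summed sheath markers of the 6. The 11 perineurial markers outside the rule summed to 3316 and 2936 CPM in sub-cluster 1 and to 3497 and 4081 CPM in sub-cluster 5, against 561 and 455 CPM in the fibroblast class, 1520 and 1315 CPM in the Ptgds-high class and 2166 and 2182 CPM in the endothelial class. Over all members the sum was 2036 and 1934 CPM, below that of the endothelial class. Itgb4 stood at 2156 and 1828 CPM in sub-cluster 1 and at 2526 and 2928 CPM in sub-cluster 5. Slc2a1 stood at 959 and 817 CPM in the former and at 644 and 896 CPM in the latter. For Cldn11 the values were 1100 and 1011 CPM in sub-cluster 1, and 661 and 828 CPM in sub-cluster 5. Their hedgehog targets differed, with Ptch1 at 372 and 312 CPM in sub-cluster 1 and at 2234 and 2681 CPM in sub-cluster 5. Thbs4 stood at 468 and 402 CPM in sub-cluster 1 and at 2485 and 2467 CPM in sub-cluster 5.

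Sub-cluster 3 (103 and 89 members) went against the label. It was led by Col15a1, A2m and Lum, and lacked much of the barrier profile. Slc2a1 stood at 105 and 71.6 CPM there, close to the fibroblast class, Cldn11 at 76.8 and 32.5 CPM and Itgb4 at 279 and 267 CPM. Cldn1 stood at 1040 and 768 CPM, within the range of the other sub-clusters, but the rule itself asked for a UMI of Itgb4 or Cldn1. Cldn1 was detected in 91.3% and 83.1% of these members and Itgb4 in 25.2% and 30.3%. The perineurial markers outside the rule summed to 1033 and 690 CPM. Apod, the apolipoprotein D gene of nerve fibroblasts, stood at 73686 and 58532 CPM in sub-cluster 3 and at 5642 and 3898 CPM in sub-cluster 1. Osr2, a transcription factor on the endoneurial fibroblast list, stood at 321 and 247 CPM in sub-cluster 3.

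The other sub-clusters carried RNA of other types. Sub-cluster 4 (104 and 87 members) had the myelin genes Prx and Pmp22 among its leading genes. Its droplet tags recurred in the other library for 35.6% and 55.2% of its members. Sub-cluster 2 (125 and 104) was led by Dmp1, Spp1 and Vgf, with the neurofilament gene Nefl at 4150 and 5037 CPM. Sub-cluster 6 (19 and 24) was led by the endothelial gene Cldn5 and the macrophage genes C1qb and C1qa. Its perineurial markers outside the rule summed to 2399 and 1519 CPM.

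**Figure D2:**
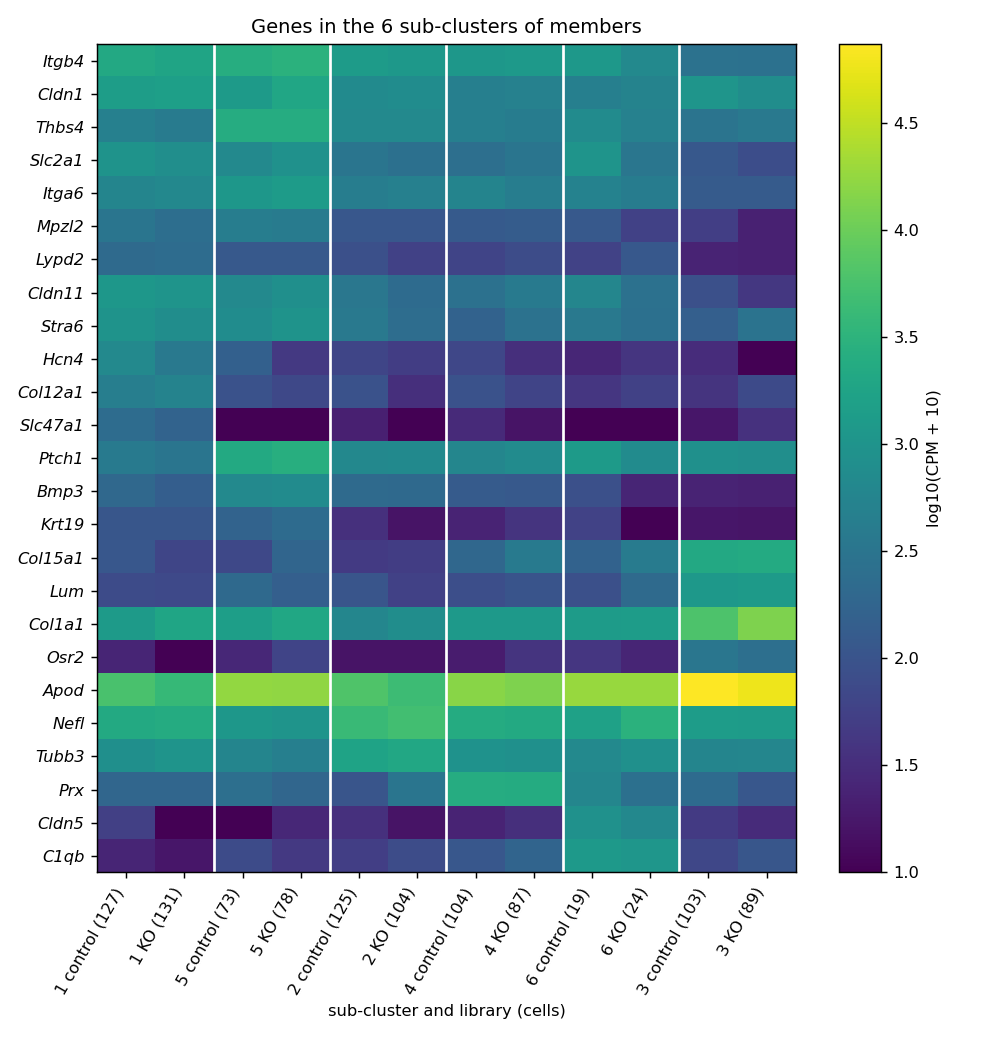
Colour shows log10 of CPM plus 10 for sheath genes, fibroblast genes and genes of other cell types in the 6 sub-clusters of each library, with the number of members in brackets. Sub-clusters 1 and 5 are bright for Itgb4, Slc2a1 and Cldn11, whereas sub-cluster 3 is dark for these genes and bright for Col15a1, Lum and Apod.

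Penk, the targeted gene, was counted with 10 UMIs in 9 Penk_control members (11.9 CPM, 5.70 to 21.9) and with 0 UMIs in Treg_Penk_KO members, at least 3.29-fold lower at a floor of 3 UMIs for the library. The 9 cells are 1.63% of the Penk_control members. Of 513 Treg_Penk_KO members 0 held a Penk UMI, and the exact upper bound of the share with a UMI is 0.717%. At this depth a cell without a UMI may still express the gene. Outside the members, Penk stood at 2.21 CPM in the Penk_control and 0.0257 CPM in the Treg_Penk_KO library, so the difference was not particular to members. Penk spans chr4:4132722-4141856 on the minus strand of GRCm39. Which part of the gene the probes read is not given in the sources.

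Between the libraries, 4624 genes had at least 100 member UMIs over both and were compared. A gene was called when its CPM in Treg_Penk_KO members was at least 1.5 times, or at most 1/1.5 times, that in Penk_control members. With 73 genes higher (1.58% of those compared) and 77 lower (1.67%), 150 genes were called (3.24%). The median log2 ratio over these genes was 0.00.

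**Figure D3:**
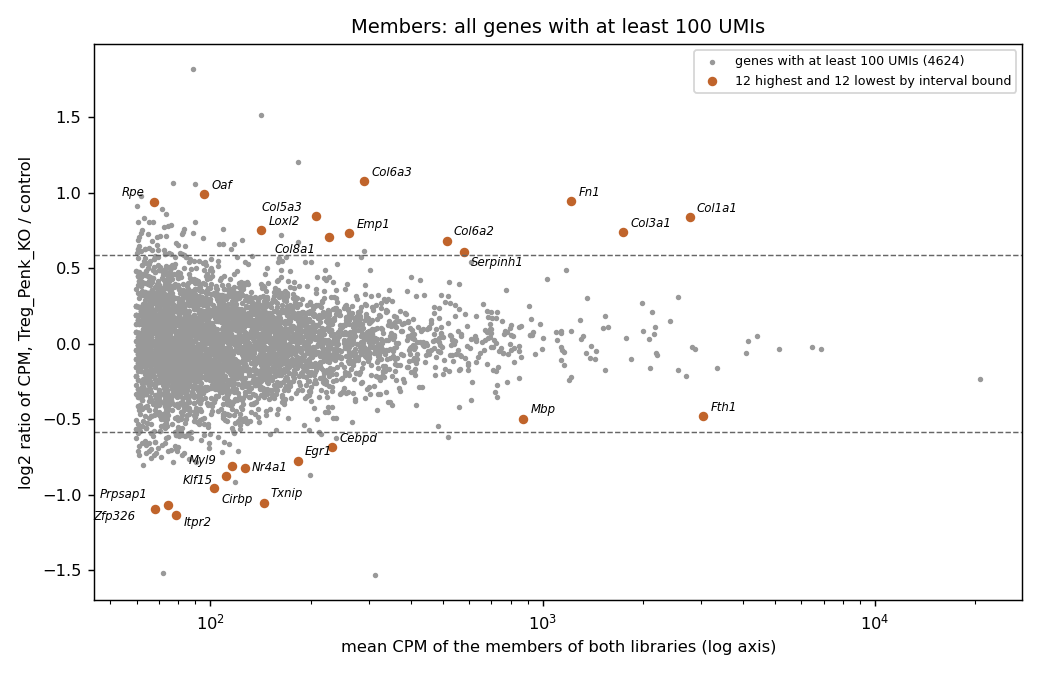
Each point is 1 of the 4624 genes compared, with the mean member CPM of both libraries on the x axis (log axis) and the log2 ratio of Treg_Penk_KO to Penk_control on the y axis; dashed lines mark 1.5-fold. The named points are the 12 highest and 12 lowest genes by interval bound, and collagen genes and Fn1 stand out among abundant genes with higher levels.

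The genes named next are from the 12 highest by the bound of the ratio's interval nearest 1, leaving out genes with over 10% of a library's UMIs in 1 member. Of these 12, Col1a1, Col3a1, Fn1, Col6a2, Col6a3 and Col8a1 stand on the collagen and matrix list, and Loxl2 on that of matrix enzymes. Col1a1, the main chain of type I collagen, stood at 1985 CPM (1891 to 2083) in Penk_control and 3547 CPM (3420 to 3677) in Treg_Penk_KO members, a ratio of 1.79 (1.68 to 1.90). Col3a1, the chain of type III collagen, stood at 1310 and 2182 CPM (ratio 1.67, 1.55 to 1.80). Fn1, which encodes fibronectin, stood at 833 and 1602 CPM (ratio 1.92, 1.75 to 2.11). Col6a3 and Col6a2, chains of type VI collagen, had ratios of 2.11 (1.74 to 2.57) and 1.60 (1.39 to 1.84). Serpinh1, the collagen chaperone, stood at 459 and 700 CPM (ratio 1.53), and Loxl2, a collagen crosslinking enzyme, at 106 and 178 CPM (ratio 1.68). Col5a3 and Col8a1, further collagen chains, had ratios of 1.80 and 1.63. The other genes of the 12 were Oaf (64.2 and 128 CPM, ratio 1.99), the membrane protein gene Emp1 (196 and 326 CPM, ratio 1.66) and Rpe, a gene of sugar metabolism (46.4 and 89.1 CPM, ratio 1.92). Without sub-cluster 3, Rpe kept its call with a ratio of 2.13. Oaf (1.06), Emp1 (1.28), Serpinh1 (1.31), Col5a3 (1.39) and Loxl2 (0.929) then lay under the 1.5-fold line. In GRCm39, Col1a1 spans chr11:94827050-94843868 on the plus strand and Fn1 chr1:71624673-71692419 on the minus strand.

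Of 35 genes on the collagen and matrix list, 26 were compared, and 8 were higher by the 1.5-fold rule and 0 lower, beside 1.58% of all genes called higher. The median log2 ratio of the list was 0.42, against 0.00 over all genes compared. The 8 were Col1a1, Col3a1, Fn1, Col6a2, Col6a3, Col8a1, Col18a1 and Vcan. For the last pair, with ratios of 2.31 and 2.09, 1 member held up to 16.5% and 14.9% of a library's UMIs. None of the 8 kept its call without sub-cluster 3, the members led by Col15a1: the ratios were then 1.24, 1.27, 1.06, 1.13, 1.33, 1.16, 1.47 and 0.515 in the same order, and the median of the list was 0.18. With each member weighted equally, Col3a1 (1.41), Col6a2 (1.36), Col8a1 (1.48) and Vcan (1.41) also lay under the 1.5-fold line. Matrix genes did not all differ. Dcn, which encodes the proteoglycan decorin, stood at 6494 and 6408 CPM, and Col1a2, the second chain of type I collagen, at 1978 and 2293 CPM (ratio 1.16, 1.08 to 1.24). Among 14 matrix enzymes and inhibitors compared, 2 were higher, Loxl2 and Timp1, with a median log2 ratio of 0.09. The Timp1 value rested on few cells, since 1 member held 35.7% of a library's Timp1 UMIs. The summed general fibroblast markers, which include Col1a1 and Col3a1, stood at 12288 CPM in Penk_control and 14975 CPM in Treg_Penk_KO members. Of 4 epineurial fibroblast genes compared none was called, and Fbn1, which encodes the microfibril protein fibrillin-1, came closest (228 and 339 CPM, ratio 1.49).

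For Col1a1 and Fn1 the difference was largest in sub-cluster 3, the members led by Col15a1. Col1a1 stood at 6149 and 13024 CPM there (ratio 2.12, 1.96 to 2.30), and Fn1 at 1180 and 5122 CPM (ratio 4.34). Per cell, the median Col1a1 of this sub-cluster was 41.7 UMIs per 10000 in the Penk_control and 76.1 in the Treg_Penk_KO library. In sub-cluster 1 the Col1a1 ratio was 1.47 and the Fn1 ratio 1.32, and in sub-cluster 5 these were 1.40 and 1.20. In sub-clusters 2, 4 and 6, which carried RNA of other types, the Fn1 ratio was 0.980, 0.868 and 0.543. With sub-cluster 3 left out, the ratio was 1.24 for Col1a1, 1.06 for Fn1 and 1.27 for Col3a1. In sub-clusters 1 and 5 alone it was 1.43, 1.23 and 1.56. Without the member with most UMIs of the gene in each library, Col1a1 stood at a ratio of 1.71 and Fn1 at 1.83.

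Other cells of the same libraries gave different values. Over all barcodes that were not members, the ratio was 1.64 for Col1a1, 2.12 for Fn1 and 1.64 for Col3a1, so relative to those barcodes the collagen and matrix list had a median log2 ratio of 0.03. In the fibroblast class Col1a1 stood at 3122 and 2525 CPM (ratio 0.809, 0.753 to 0.868) and Fn1 had a ratio of 0.802 (0.628 to 1.02). With each cell of the class weighted equally the libraries were closer. The means per cell were then 32.31 and 31.25 UMIs per 10000 for Col1a1 and 2.605 and 2.393 for Fn1. That class was required to hold few UMIs of the rule genes, its own marker list includes Col1a1, and its definition was changed after values of a first version had been seen. The first version gave 0.688 for Col1a1 and 0.546 for Fn1, and the 2 further versions tried also lay below 1 for both genes. For Col3a1 the first version gave 1.09 and the 2 further versions 1.17 and 0.952. Another 201 Penk_control and 212 Treg_Penk_KO barcodes met every part of the rule except for a UMI of Itgb4 or Cldn1. They had higher Col1a1 and Fn1 in the Treg_Penk_KO library. Col1a1 stood at 5255 and 9717 CPM (ratio 1.85, 1.73 to 1.97) and Fn1 at 1418 and 5196 CPM (ratio 3.66, 3.27 to 4.12). The higher Col1a1 and Fn1 levels were therefore not particular to barcodes with a counted UMI of Itgb4 or Cldn1. At median depths of 1072 and 1024 UMIs, barcodes without such a UMI may still express these genes. They held Slc2a1 at 141 and 109 CPM. Whether the mix of fibroblast-like barcodes differed between the pools was not tested.

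**Figure D4:**
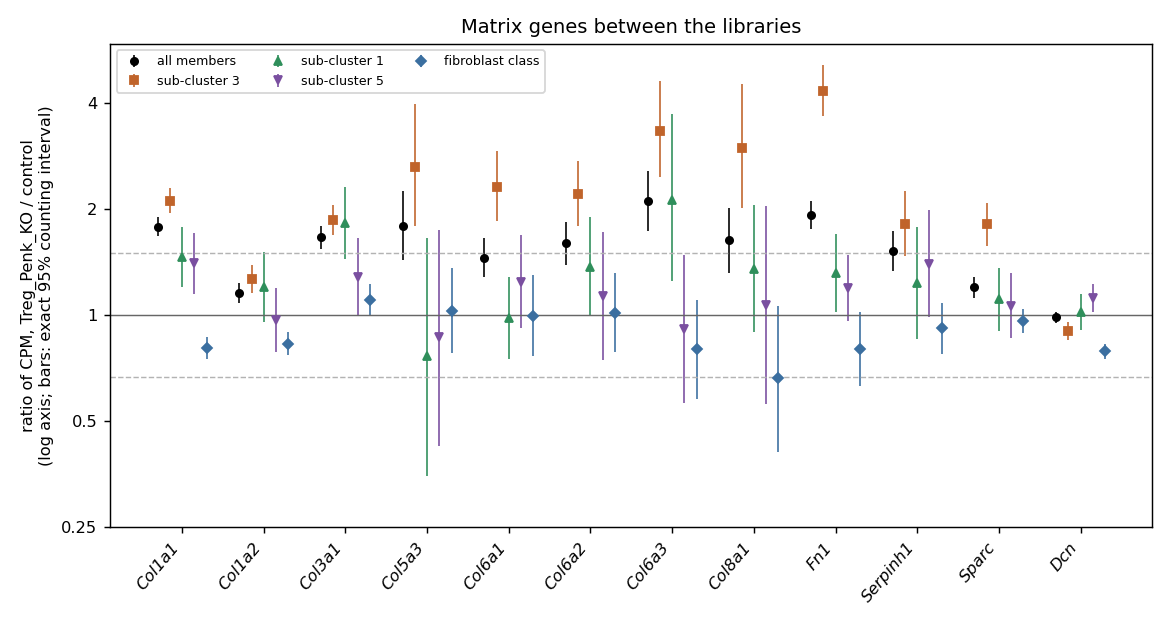
Ratio of CPM, Treg_Penk_KO over Penk_control (log axis, bars are exact 95% counting intervals), for 12 matrix genes in all members, sub-clusters 3, 1 and 5 and the fibroblast class; dashed lines mark 1.5-fold. Sub-cluster 3 lies highest for Col1a1 and Fn1, the fibroblast class lies below 1 for both, and Dcn is near or below 1 in all members and in sub-cluster 3.

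The barrier lists held at most 1 call each, beside 3.24% of all genes compared. None of the 11 tight junction genes compared outside the rule was called, and their median log2 ratio was 0.05. Cldn11, F11r and Jam3, which encode tight junction membrane proteins, had ratios of 0.965, 1.09 and 1.15. Of 18 basement membrane genes and receptors compared, 1 was called, Nid2, which encodes nidogen-2 (82.1 and 130 CPM, ratio 1.58). The abundant members of that list differed less, with Col4a1, a type IV collagen chain, at a ratio of 1.09, the heparan sulphate proteoglycan Hspg2 at 1.20 and the laminin chain Lamb2 at 1.06. Among 13 transport genes of barriers, 1 was called, the water channel Aqp1 (58.3 and 87.9 CPM, ratio 1.51), while the sodium pump subunit gene Atp1b1 had a ratio of 1.04.

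Immediate early genes are those that cells induce within minutes of a stimulus. Of 11 compared, 5 were called lower in Treg_Penk_KO members and 0 higher, beside 1.67% of all genes called lower, and the median log2 ratio was -0.49. The same list had a median of -0.53 in the fibroblast class and -0.15 over all barcodes outside the members, so the lower values were not particular to members. With each member weighted equally, Ier3 kept its call, whereas Egr1 (0.798), Nr4a1 (0.722), Dusp1 (0.826) and Fosl2 (0.778) did not. Egr1 stood at 231 and 135 CPM (ratio 0.584, 0.459 to 0.741) and Nr4a1 at 162 and 91.5 CPM (ratio 0.566, 0.421 to 0.754), both transcription factors of this group. Dusp1, a phosphatase of the same response, stood at 108 and 63.8 CPM (ratio 0.589), whereas Jun stood at 241 CPM in both libraries. The list's median was -0.11 after members were thinned to 500 UMIs. In sub-clusters 1 and 5 alone it was -0.15, but over only those listed genes with enough UMIs there to be compared. The 5 genes called lower had ratios there of 0.451 (Egr1), 0.291 (Nr4a1), 0.486 (Ier3), 0.552 (Dusp1) and 0.412 (Fosl2). Jun had a ratio of 0.839 there and Klf2 of 1.01. The lower values were therefore not absent from these sub-clusters. Egr1 was also lower outside the members, with a ratio of 0.608.

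Glucocorticoid-induced genes gave 5 called lower and 0 higher among 16 compared, beside 1.67% of all genes called lower. Their median log2 ratio was -0.34, against -0.08 in the fibroblast class and -0.07 over all barcodes outside the members. With each member weighted equally, Plin4 (0.365) kept its call, whereas Cebpd (0.687), Zbtb16 (0.722), Per1 (0.719) and Dusp1 (0.826) did not. Cebpd, a transcription factor, stood at 287 and 178 CPM (ratio 0.621, 0.503 to 0.766), and Zbtb16, a zinc finger factor, at 289 and 188 CPM (ratio 0.650, 0.528 to 0.798). Tsc22d3, a classic target, stood at 819 and 640 CPM (ratio 0.781), and Fkbp5, another, at 347 and 374 CPM (ratio 1.08). In sub-clusters 1 and 5 alone the median was 0.05, but over only those genes of this list with enough UMIs there to be compared. The 5 genes called lower had ratios there of 0.291 (Plin4), 0.386 (Cebpd), 0.637 (Zbtb16), 0.712 (Per1) and 0.552 (Dusp1). Tsc22d3 had a ratio of 0.774 there and Fkbp5 of 1.12. The lower values were therefore not absent from these sub-clusters. Of 9 clock genes compared, 2 were lower, Per1 (259 and 171 CPM, ratio 0.659) and Dbp (102 and 61.4 CPM, ratio 0.60), beside 1.67% of all genes. The median log2 ratio of the clock genes was -0.35, against -0.56 in the fibroblast class and -0.08 outside the members. Per1 stands on both lists, and Dusp1 on the glucocorticoid and the immediate early list. The hour at which the tissue was taken is not given in the sources.

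Interferon-stimulated genes leaned the other way. Of 22 compared, 2 were called higher, beside 1.58% of all genes, 0 were called lower, and 17 ratios lay above 1. The median log2 ratio was 0.25, against 0.02 in the fibroblast class and 0.17 over all barcodes outside the members. The list summed to 2743 and 3204 CPM in members. In the Ptgds-high class it summed to 5780 and 11208 CPM, in the endothelial class to 5615.5 and 6835 CPM, and in satellite glia to 3122 and 3151 CPM. Stat2, a transcription factor of the type I interferon response, stood at 54.7 and 93.9 CPM (ratio 1.72, 1.18 to 2.53), and Eif2ak2, a sensor of double-stranded RNA, at 55.9 and 91.5 CPM (ratio 1.64, 1.12 to 2.41). With each member weighted equally, Stat2 (1.87) kept its call and Eif2ak2 (1.30) did not. The antiviral genes Ifit1 and Isg15 stayed just under the 1.5-fold line, with 163 and 237 CPM (ratio 1.46, 1.16 to 1.82) and 130 and 193 CPM (ratio 1.49, 1.16 to 1.91). Irf7, a regulator of interferon genes, had a ratio of 0.769 (0.601 to 0.981). In sub-clusters 1 and 5 alone the median was 0.62, over only those listed genes with enough UMIs there to be compared. Relative to all other barcodes the median of the list was 0.10.

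The 12 genes lowest by interval bound, leaving out genes with over 10% of a library's UMIs in 1 member, also held genes outside these lists. Txnip, a thioredoxin-binding protein that responds to glucose, stood at 195 and 93.9 CPM (ratio 0.481, 0.363 to 0.634), against a ratio of 0.910 outside the members. Fth1, the ferritin heavy chain that stores iron, stood at 3540 and 2535 CPM (ratio 0.716, 0.677 to 0.757), short of the 1.5-fold rule, as was Mbp. Klf15, a metabolic transcription factor, had a ratio of 0.544, the calcium channel gene Itpr2 0.456 and the myosin light chain gene Myl9 0.571. Cirbp, a cold-inducible RNA-binding protein, had a ratio of 0.515 in members and 0.742 outside them. Mbp, a myelin gene foreign to sheath cells, stood at 1022 and 723 CPM (ratio 0.708, 0.637 to 0.787). Zfp326 and Prpsap1 complete the 12 with ratios of 0.467 and 0.476.

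The remaining families held at most 2 calls each, beside 3.24% of all genes compared. For complement, 1 of 9 genes was lower, the central component C3 (122 and 75.8 CPM, ratio 0.619), and Serping1, the abundant C1 inhibitor, had a ratio of 0.938. None of 15 genes of TGF-beta and bone morphogenetic protein signalling was called, among them Ltbp4, a binding protein of latent TGF-beta, with 796 CPM in both libraries. Of 7 genes of insulin-like growth factor signalling, 1 was lower, the receptor Igf1r (103 and 68.6 CPM, ratio 0.663). Of 14 neurotrophic and guidance ligands, 2 were lower, Ntn4 and the growth factor gene Bdnf (98.7 and 60.2 CPM, ratio 0.610). Among genes of lipopolysaccharide sensing, Nfkb1 was higher (61.8 and 97.5 CPM, ratio 1.58) as 1 of 4, and among 7 receptors of cytokines active in psoriasis-like inflammation Ifngr2 was higher (59.5 and 90.3 CPM, ratio 1.52). For genes of opioid signalling, 1 of 5 was lower, the enkephalin-degrading protease Mme (78.5 and 49.3 CPM, ratio 0.629). In sub-clusters 1 and 5 alone the Mme ratio was 0.971. The mu opioid receptor gene Oprm1 stood at 95.1 and 68.6 CPM (ratio 0.721, 0.504 to 1.03), and Ackr3, which encodes a scavenger receptor for opioid peptides, at 167 and 161 CPM. With each member weighted equally, C3 (0.486), Ntn4 (0.656) and Nfkb1 (1.71) kept their calls. Igf1r (0.707), Bdnf (0.668), Ifngr2 (1.13) and Mme (0.909) did not.

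Hcn4, a pacemaker channel gene that leads sub-cluster 1, was chosen after its values were seen. It was counted with 130 UMIs in Penk_control and 68 UMIs in Treg_Penk_KO members, or 155 and 81.8 CPM (ratio 0.529, 0.389 to 0.715). A single member held 13.1% of a library's Hcn4 UMIs, and with each member weighted equally the ratio was 0.782. Outside the members it was 0.961.

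**Figure D5:**
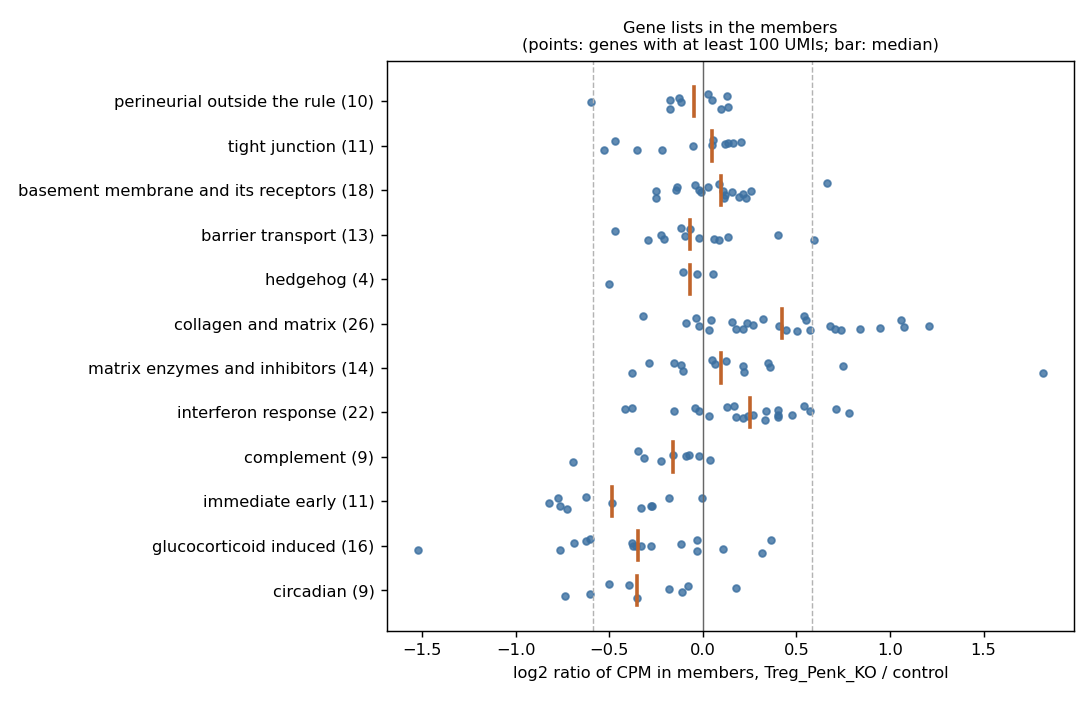
Log2 ratio of CPM in members, Treg_Penk_KO over Penk_control, for the genes of 12 lists with at least 100 UMIs (points) and their median (bar); dashed lines mark 1.5-fold. Collagen and matrix genes lie mostly to the right of 0, immediate early, glucocorticoid-induced and clock genes mostly to the left, and tight junction genes around 0.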

How the data were processed

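Per the labels' protocols, fixed ganglia were profiled with a probe-based fixed RNA kit, and the authors aligned reads to GRCm39 with Cell Ranger 7.0. The header of each deposited matrix names version 8.0.1, and the submitters' processing notes name mm39 and Seurat without a role. The series text speaks of nuclei, the sample labels of fixed cells. The deposited values are raw UMI counts of 19059 genes per called barcode, not normalized. The libraries held 259136217 (Penk_control) and 156441497 (Treg_Penk_KO) UMIs, with medians of 2481 and 2243 per barcode.

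The members, gene lists and comparisons were chosen with earlier results of these data known. Member UMIs were summed per library and scaled to CPM. Intervals are exact Poisson (CPM), conditional binomial (ratios) and Clopper-Pearson (shares) at 95%, computed with scipy 1.17.1. The ratio intervals were tried on simulated Poisson counts. These hold no extra spread between cells or mice, so the trial cannot show whether the intervals are wide enough for such spread. There is 1 library per group, so no p-value was computed. Genes with at least 100 member UMIs over both libraries were compared. The 12 highest and 12 lowest were ranked by the interval bound nearest 1, leaving out genes with over 10% of a library's UMIs in 1 member. Genes over other classes were ranked with 20 CPM added. List members were named by abundance. Fibroblast-class barcodes held at least 60 UMIs per 10000 of 6 fibroblast genes and under 10 per 10000 of the rule genes. Sub-clusters came from scanpy 1.11.5 (1500 variable genes, 15 components, 15 neighbours, Leiden resolution 0.6). No doublet caller was run. Droplets of 1 library, thinned cells and members poor in RNA of other types served as alternatives. Values of some genes are not reported here.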

Additional observations from a re-analysis of the deposited data

Results flagged for a closer look

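Col1a1, Prpsap1 and Nid2 were marked because the members and the fibroblast class differed in opposite directions between the libraries, with counting intervals on opposite sides of 1. Col1a1 had a ratio of Treg_Penk_KO to Penk_control of 1.79 in the members and 0.809 in the fibroblast class, with UMIs pooled. Averaged per cell, Col1a1 in the fibroblast class was nearly the same in both libraries. The mean was 32.31 UMIs per 10000 in Penk_control and 31.25 in Treg_Penk_KO, and the median 21.24 and 19.74. The highest Penk_control barcode of the class held 864.3 per 10000. In members the means per cell were 19.68 and 29.77. Prpsap1, a gene of nucleotide synthesis, had a ratio of 0.476 in the members and 1.61 (1.04 to 2.52) in the fibroblast class, and under 3 other definitions of that class the ratio was 1.02, 1.35 and 0.933. Nid2, the basement membrane gene, had a ratio of 1.58 in the members and 0.526 in the fibroblast class. With 1 library per group none of these differences was tested.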

How the results depend on the processing

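No paired analysis was possible because each group held 1 library. Leaving out a replicate was not possible for the same reason, and no setting below measures the spread between mice. Over the settings tried the share of members stayed higher in the Treg_Penk_KO library, by 1.15 to 1.34 times. The numbers of genes called higher and lower, 73 and 77 as reported, depended on the settings: 139 and 122 with members weighted equally, 313 and 363 after thinning to 500 UMIs, 230 and 255 with a minimum of 50 UMIs, 1872 and 1912 with no minimum, and 415 and 432 at a lower fold threshold. Fewer genes reached 100 UMIs when members were removed. The counts were then 47 and 29 among the 724 genes of members poor in RNA of other types, 43 and 48 of 2175 with both Itgb4 and Cldn1, 23 and 20 of 916 in sub-clusters 1 and 5, and 43 and 63 without sub-cluster 3. Of 137 genes recomputed, 11 values reversed among genes called by the 1.5-fold rule, for which the cause was not tested. Relative to all other barcodes the ratios were 0.910 for Fn1 and 0.963 for Col6a2. In sub-clusters 1 and 5 they were 0.814 for Col5a3, 0.917 for Loxl2, 0.777 for Timp1, 1.58 for C3 and 0.571 for Ifngr2. Without sub-cluster 3 they were 0.929 for Loxl2, 0.515 for Vcan and 0.639 for Timp1. After thinning, Ifngr2 had a ratio of 0.955. The other values comprised 1143 that stayed close to those reported and 221 that moved. Genes that were not called were not marked as reversed, although some of them changed direction. Irf7 had a ratio of 0.769 as reported and 1.295 in sub-clusters 1 and 5. Wfdc1 had 0.747 as reported and 1.22 in members poor in RNA of other types.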

Other observations

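Barcodes that failed a single part of the rule were looked at as values. The 201 Penk_control and 212 Treg_Penk_KO barcodes without a UMI of Itgb4 or Cldn1 carried Igfbp6 at 4122 CPM in the Penk_control library and a ratio between libraries of 0.838 (0.769 to 0.915). Lum, a fibroblast proteoglycan gene, had a ratio of 1.80 (1.49 to 2.17) in them. Another 15 Penk_control and 12 Treg_Penk_KO barcodes met the rule but held over 10000 UMIs, and their Col1a1 stood at 630 and 2860 CPM. The Ptgds limit alone left out 11 and 14 barcodes.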
